A study of Mus musculus with 12 samples.

Results

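PIWI-interacting RNAs of 29 and 30 nt that start with U and carry a base other than A at position 10 were followed through sodium periodate oxidation of mouse testis RNA. Members were picked from the deposited piRNA table by length, first base and base 10 only, so no measured value chose them. They numbered 139774 of 1018402 sequences, or 13.7% of the table, with 66095 of 29 nt and 73679 of 30 nt. Of these, 6603 reached a mean of 5 RPM (read counts scaled to a fixed library total) over the libraries and were tested one by one. These 6603 held 72.8% of the members' RPM. The lowest member inside this limit averaged 5.000 RPM and the highest outside it 4.9996 RPM. Tested members came from 5483 different 5′ ends (the same initial 25 bases), and 1116 of these ends gave more than 1 tested member, so members are not independent of each other.

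piRNAs guide PIWI proteins to transposon and other transcripts in germ cells. In adult mouse testis most of them are pachytene piRNAs, cut from long single-stranded precursors and bound by MIWI, which holds the longer species, or by MILI, which holds shorter ones. PIWI proteins anchor the 5′ end of the guide and favour U there, whereas A at position 10 marks partners made by the ping-pong cycle, in which one piRNA guides the cut that makes the next. Trimming sets the 3′ end, and HENMT1 then adds a 2′-O-methyl group to the last ribose. Periodate oxidises 3′ ends without that group, which then ligate poorly to adapters.

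The sequences below carry the results that follow. They are members with a known position that were highest after oxidation or highest of their length and last base. The 29 and 30 nt partners of some of them, and members with the largest changes, were added. Letters are as deposited, 5′ to 3′, with T standing for U, and capitals mark base 1, base 10 and the last base. Positions are GRCm38, from exact matches to GENCODE M21 transcripts or to RefSeq promoter windows.

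n1, Gm21269 exon, chr7:73824992-73825021 (+): TatgtgaatTtcaactgttggctccacagG

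n10, Gm21269 exon, chr7:73824992-73825020 (+): TatgtgaatTtcaactgttggctccacaG

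n2, Gm10505 promoter window, chr17:27342441-27342469 (+): TagaatttcCggtctggtcacactcattC

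n3, Gm3433 exon, antisense, chr8:37104975-37105004 (-): TaactatggCcccgaactgtaagaattacT

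n4, Gm3433 exon, antisense, chr8:37104976-37105004 (-): TaactatggCcccgaactgtaagaattaC

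n5, 1700001L05Rik exon, chr15:83355887-83355916 (-): TaatcgtttTaactgtttgcttggctaacC

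n6, 1700001L05Rik exon, chr15:83355518-83355546 (-): TgatataatCtgcctttgtagttcagccT

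n7, 1700042G15Rik exon, chr4:57361357-57361385 (-): TgccaccgaGattcgagtgaagaatgagA

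n11, 1700042G15Rik exon, chr4:57361356-57361385 (-): TgccaccgaGattcgagtgaagaatgagaT

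n12, Gm21269 exon, chr7:73817804-73817833 (+): TgacagaatGacagagggctatctatgctG

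n13, Gm49794 exon, chr17:27361768-27361797 (+): TgccaagtgCctcgggacccaaacagactT

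n14, Gm10505 exon, chr17:27338770-27338798 (+): TacctttaaTcccagatgaccttgaactC

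n15, Gm21221 exon, chr5:149802306-149802334 (-): TacttgacaGaccgcagcaaaccgcaacC

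n17, Cbl 3′ UTR, chr9:44148081-44148110 (-): TaaaaacttGtgggttctgaaatatacctC

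n19, Gm21269 exon, chr7:73820762-73820791 (+): TaggactgcTtcatgactcctgatggcagA

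n24, Gm49794 exon, chr17:27355728-27355756 (+): TcactctcgGaacttgtatcttgtgagaC

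The RNA was testis total RNA of C57BL/6 males aged 4 months, and all libraries were made by 1 low-input protocol from small RNAs of 17 to 40 nt. The 6 groups were RNA after NaIO4 oxidation at 10, 50 and 100 ng of input, and RNA before oxidation at the same inputs, each with 2 technical replicates. Spike-in RNAs, methylated or not at the 3′ end, were added in proportion to the input. The series tests how little RNA suffices to find small RNAs with the 3′ mark, so the comparisons here are after against before oxidation, and low against high input. The replicates being technical, all p-values refer to spread between libraries and not between mice, and no batch is labelled.

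The RPM denominators, recovered from the deposited values, were 1924201 to 3347735 reads, and members had 477135 to 857626 reads in a library. Before oxidation, 5 of 5 germ-cell miRNAs were found at 96.4 to 33938 RPM. The Sertoli cell miR-202-5p had 62.1 to 191 RPM. The 5 liver, brain and blood cell miRNAs stayed at or below 6.07 RPM. Of 2 muscle miRNAs miR-1a-3p had 56.4 to 126 RPM and miR-133a-3p 0.363 to 3.68 RPM. Summed miRNA levels were 218 to 441 RPM after oxidation and 116696 to 138463 RPM before it. RPM is relative to the library, so a smaller miRNA part leaves more of it to other RNAs.

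The 10 ng libraries after oxidation stood apart. They held 14611 and 10465 distinct members, against 36830 to 42866 after oxidation at 50 and 100 ng and 37045 to 54630 before oxidation. Of the 6603 tested members, 1778 and 2421 had no read in them, and 1021 had none in both. In the other 10 libraries 62 to 307 tested members had no read. Replicates correlated across the 6603 members with r of 0.46 after oxidation at 10 ng, 0.78 at 50 ng and 0.88 with 100 ng, and with 0.89, 0.93 and 0.94 before oxidation at these inputs (log2(RPM + 1), described across sequences that share libraries and depth). Reads per distinct member were 38.9 and 45.6 in the 10 ng libraries after oxidation, against 11.02 to 20.4 elsewhere. Values below are therefore given at each input, and sequence counts also without the 10 ng libraries.

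Members took a larger share of the library after oxidation. Summed, they had 262942 and 247965 RPM after oxidation at 10 ng, 254222 and 260170 RPM at 50 ng, and 256237 and 249915 RPM with 100 ng, against 206233 to 209525 RPM in the 6 libraries before oxidation. No library before oxidation reached any library after it. The sum averaged 255242 ± 5778 RPM after and 208347 ± 1116 RPM before oxidation (SD, n = 6 each), a log2 change of 0.29 (exact 2-sided permutation of oxidation labels within inputs, p = 0.00926, the smallest the design can give, adjusted p = 0.0122 over 21 values). The libraries are technical replicates of testis RNA and RPM gives shares of a library, so this difference says nothing on cell numbers or RNA per cell.

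Within the piRNA table, where miRNAs do not count, members were 28.1 ± 0.410% of RPM after oxidation and 25.9 ± 0.331% before it (exact permutation p = 0.00926, adjusted p = 0.0122). The difference was 2.92 percentage points at 10 ng, 2.02 at 50 ng and 1.61 at 100 ng. After and before libraries did not overlap at any input. Members also gained on 3 neighbouring piRNA sets, compared as ratios of summed RPM. Against 26 to 28 nt piRNAs starting with U, the shorter species typical of MILI, the ratio was 1.39 ± 0.0383 after and 1.24 ± 0.0539 before oxidation (exact permutation p = 0.00926, adjusted p = 0.0122). Against 29 to 32 nt piRNAs with U at position 1 and A at position 10, it was 1.42 ± 0.0879 after and 1.33 ± 0.00917 before oxidation (exact permutation p = 0.00926, adjusted p = 0.0122), which did not pass over sequences of at least 5 RPM.

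Against 31 and 32 nt piRNAs of the same base rule, the ratio was 2.57 and 2.59 after oxidation at 10 ng, 2.12 and 2.24 at 50 ng, and 2.14 and 2.08 with 100 ng. Before oxidation it was 2.08 to 2.11 in all 6 libraries. The difference passed the test (exact permutation p = 0.0278, adjusted p = 0.0324) but lay mostly in the 10 ng libraries, with log2 changes of 0.29, 0.06 and 0.02 at 10, 50 and 100 ng. At 100 ng the after and before libraries overlapped. It no longer passed without 1 library in 3 cases, replicate 1 or 2 at 50 ng before oxidation or replicate 1 at 100 ng after it, with log2 changes of 0.12, 0.12 and 0.12.

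Per read of the 3 methylated spike-ins, member reads went the other way. They numbered 1.95 and 1.59 after oxidation at 10 ng, 3.40 and 2.68 at 50 ng, and 3.24 and 3.72 with 100 ng, against 15.1 to 20.1 in the libraries before oxidation. The log2 change was -2.70 (exact permutation p = 0.00926, adjusted p = 0.0122), with -3.48, -2.42 and -2.19 at 10, 50 and 100 ng. On the spike-in scale each of the 8 member classes described next was lower after oxidation, as were all 301 classes of the piRNA table. The median log2 change was -2.76 for the member classes and -2.92 for all classes.

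The last base, where the methyl group sits, was next used to split the members. Those ending in C made up 39.5% and 39.7% of member RPM after oxidation at 10 ng, 37.1% and 37.4% at 50 ng, and 36.1% and 36.6% with 100 ng, against 33.3% to 34.6% before oxidation. The libraries did not overlap, and the mean share was 37.7 ± 1.52% after and 33.9 ± 0.539% before oxidation (exact permutation p = 0.00926, adjusted p = 0.0122). Members ending in G took 9.47% to 10.4% after oxidation and 11.4% to 12.3% before it, again without overlap (exact permutation p = 0.00926, adjusted p = 0.0122).

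Members ending in T averaged 35.3 ± 1.81% after oxidation and 36.6 ± 1.02% before it, a fall of 2.15 percentage points at 10 ng and 0.442 at 100 ng (exact permutation p = 0.00926, adjusted p = 0.0122). Members ending in A averaged 17.1 ± 0.659% after and 17.7 ± 0.819% before oxidation (exact permutation p = 0.0185, adjusted p = 0.0229), and at 50 ng their libraries overlapped. Shares of 1 whole must trade against each other, so these 4 tests are not independent. Before oxidation the share ending in C also differed with input, at 34.6% and 34.5% with 10 ng and 33.3% and 33.4% with 100 ng. That gap was smaller than the change on oxidation, as it was for G, at 11.4% and 11.5% against 12.3% and 12.1%. For A the gap was larger, at 18.5% and 18.6% against 16.7% and 16.7%. For T it was also larger, at 35.5% and 35.4% against 37.7% and 37.8%. The average changes on oxidation were -0.588 percentage points for A and -1.22 for T.

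**Figure D1:**
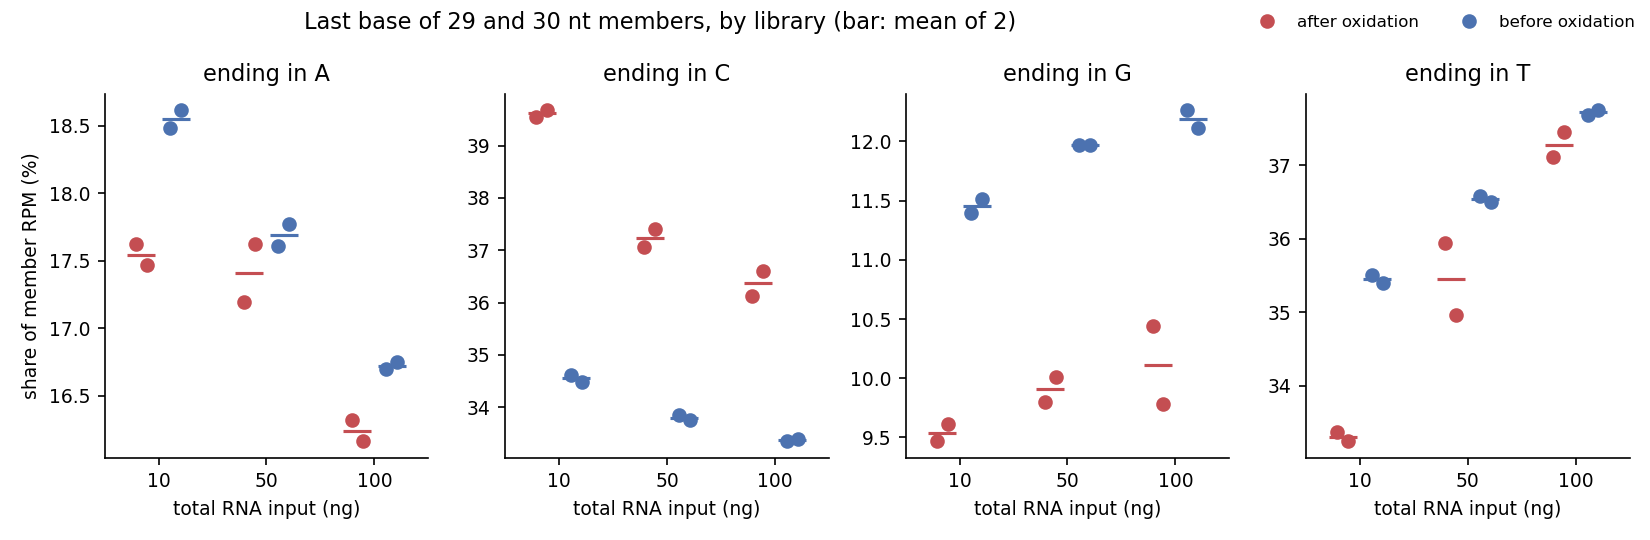
Share of member RPM by last base (y axes, percent, each with its own range) at each input (x axis, ng); points are libraries, bars the mean of 2 technical replicates, red after and blue before oxidation. Shares ending in C lie at 36.1% to 39.7% after oxidation and at 33.3% to 34.6% before it, and shares ending in G lie lower after oxidation at each input.

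Split by length and last base, 6 of the 8 member classes were higher in RPM after oxidation and none was lower, on average over inputs and at each input (limma, Benjamini-Hochberg adjusted p below 0.05). Of all 301 classes of the piRNA table, 42.5% were called higher and 35.5% lower. Without the 10 ng libraries 6 member classes were again higher and none lower, beside 39.9% and 33.6% of all classes. At 10 ng, centring libraries on their medians gave 2 member classes higher and 1 lower, and sums over sequences of at least 5 RPM gave 2 and 2. At 10 ng the shares of all classes were 40.2% and 37.9%, at 50 ng 30.9% and 24.9%, and at 100 ng 29.2% and 21.6%. The class of 30 nt ending in C showed the largest log2 change among the 8, 0.49 ± 0.02 (SE), with 55154 ± 2923 RPM after and 39131 ± 650 RPM before oxidation (limma adjusted p = 3.98e-09). The class of 29 nt ending in C followed with 0.38 ± 0.02, at 41171 ± 1851 RPM after and 31507 ± 352 RPM before oxidation (limma adjusted p = 1.66e-08). Both held without their highest member, with log2 changes of 0.51 and 0.40.

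The classes ending in A and T moved less. At 30 nt their log2 changes were 0.31 ± 0.03 for A and 0.28 ± 0.02 for T, and at 29 nt 0.17 ± 0.02 for A and 0.18 ± 0.02 for T (limma adjusted p at most 4.31e-06). With each library scaled to the same piRNA total, the class of 29 nt ending in A came to -0.01. The classes ending in G did not pass, at 0.06 ± 0.03 for 29 nt (limma adjusted p = 0.148) and 0.00 ± 0.02 for 30 nt (limma adjusted p = 0.855). For 30 nt ending in G the level was 17088 ± 1524 RPM after and 17014 ± 1201 RPM before oxidation. A single sequence, n1 from Gm21269, made up 30.9 ± 8.58% of that class after oxidation and 29.8 ± 5.84% before it. Without n1 the class had 11713 ± 711 RPM after and 11885 ± 168 RPM before oxidation, a log2 change of -0.02.

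Scaling each library to the same piRNA total gave 4 classes higher and 2 lower, beside 81 and 161 of all 301 classes. Scaling to methylated spike-ins gave 8 lower, with log2 changes of -2.98 to -2.50, beside 301 of all 301 classes. At 30 nt the order of last bases was C above A and T, and G lowest. Each of these scales divides all classes of a library by 1 factor, so this order could not differ between them. The change of 1 class, 30 nt ending in T, differed between 10 and 100 ng, with log2 changes of 0.21 ± 0.03 and 0.33 ± 0.03 (limma interaction, adjusted p = 0.0294), beside 23.3% of all classes with a higher and 18.3% with a lower change at 10 ng. No member class passed this comparison without replicate 1 at 10 ng before oxidation, without either library at 100 ng before it, or without replicate 1 at 100 ng after it. In the limma F test over all inputs 0 member classes passed the interaction, with 1 at an unadjusted p under 0.05, while 34.9% of the 301 classes passed. DESeq2 called 0 member classes there and edgeR 2, and limma called 2 and 4 without replicate 1 or 2 at 10 ng after oxidation.

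**Figure D2:**
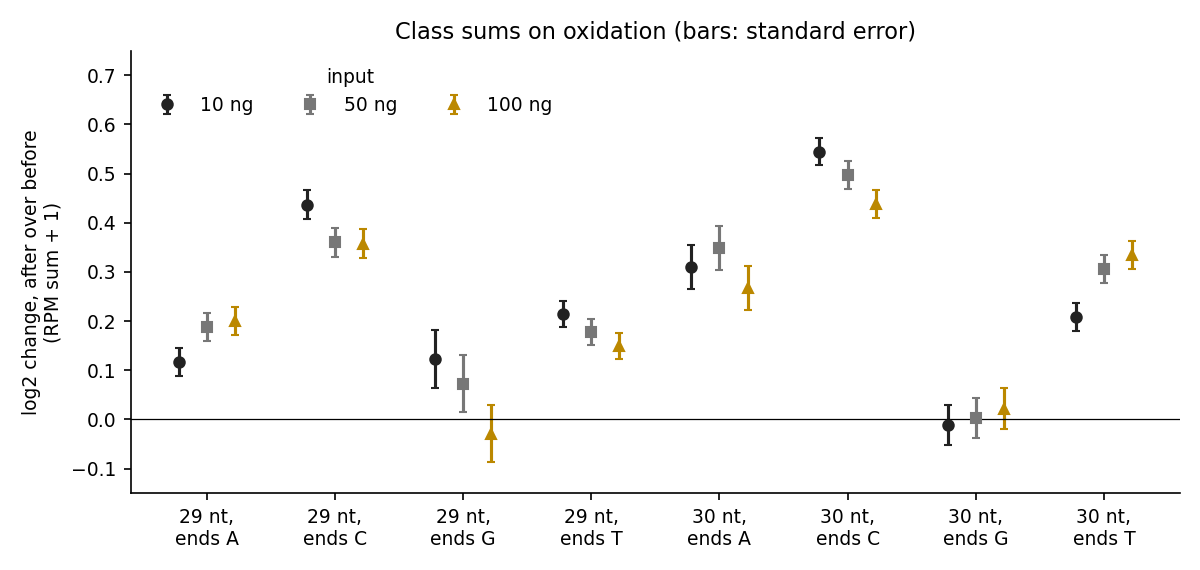
Log2 change of the RPM sum of each member class, after over before oxidation (y axis), by length and last base (x axis) and input (symbol); bars are standard errors from the limma fit over 301 classes, 2 libraries per group. Both classes ending in C lie highest at their length, at 0.36 to 0.54, and the 2 classes ending in G lie at -0.03 to 0.12.

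The 3′ end was next compared within sequences that share a 5′ end. In 37181 cases a 30-mer member was a 29-mer member with 1 base added, and these pairs held 91.8% of member RPM. A 29-mer with several such 30-mers was counted in each of its pairs, so the splits by added base share 29-mer reads. The 30 nt form made up 59.3 ± 0.779% of the pairs' RPM after oxidation and 58.2 ± 0.312% before it (exact permutation p = 0.00926, adjusted p = 0.0122), a difference of 0.435, 1.46 and 1.32 percentage points at 10, 50 and 100 ng. It did not pass over sequences of at least 5 RPM, at 0.11 points. Where the added base was C, in 9502 pairs, the 30 nt share was 72.9% to 74.2% in the libraries after oxidation and 70.1% to 70.8% in those before it (exact permutation p = 0.00926, adjusted p = 0.0122). Where it was G, in 6134 pairs, the share was lower, at 42.0 ± 0.956% after and 44.3 ± 0.599% before oxidation (exact permutation p = 0.00926, adjusted p = 0.0122), but over sequences of at least 5 RPM it was 0.41 points higher after oxidation.

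Added A, in 8707 pairs, gave 43.3 ± 1.09% after and 42.8 ± 0.153% before oxidation, which did not pass (exact permutation p = 0.231, adjusted p = 0.231). Added T, in 12838 pairs, gave 65.7 ± 2.32% after and 66.7 ± 0.869% before oxidation, which did not pass either (exact permutation p = 0.167, adjusted p = 0.175). Other ways of counting passed in opposite directions for T, at -2.35 percentage points over sequences of at least 5 RPM (exact permutation, adjusted p = 0.0132) and 0.98 points with distinct sequences counted once (exact permutation, adjusted p = 0.0108). Without the n1 pair, pairs with an added G stood at 32.6 ± 2.66% after and 35.3 ± 1.53% before oxidation. Members ending in CG were few, 638 in all, and 1 of them held 63.6 ± 23.4% of their RPM after and 81.8 ± 5.58% before oxidation. Their sum was 1108 ± 565 RPM after and 2508 ± 712 RPM before oxidation, and without that sequence 306 ± 45.3 and 423 ± 37.2 RPM, so the size of this fall rests mostly on 1 member.

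**Figure D3:**
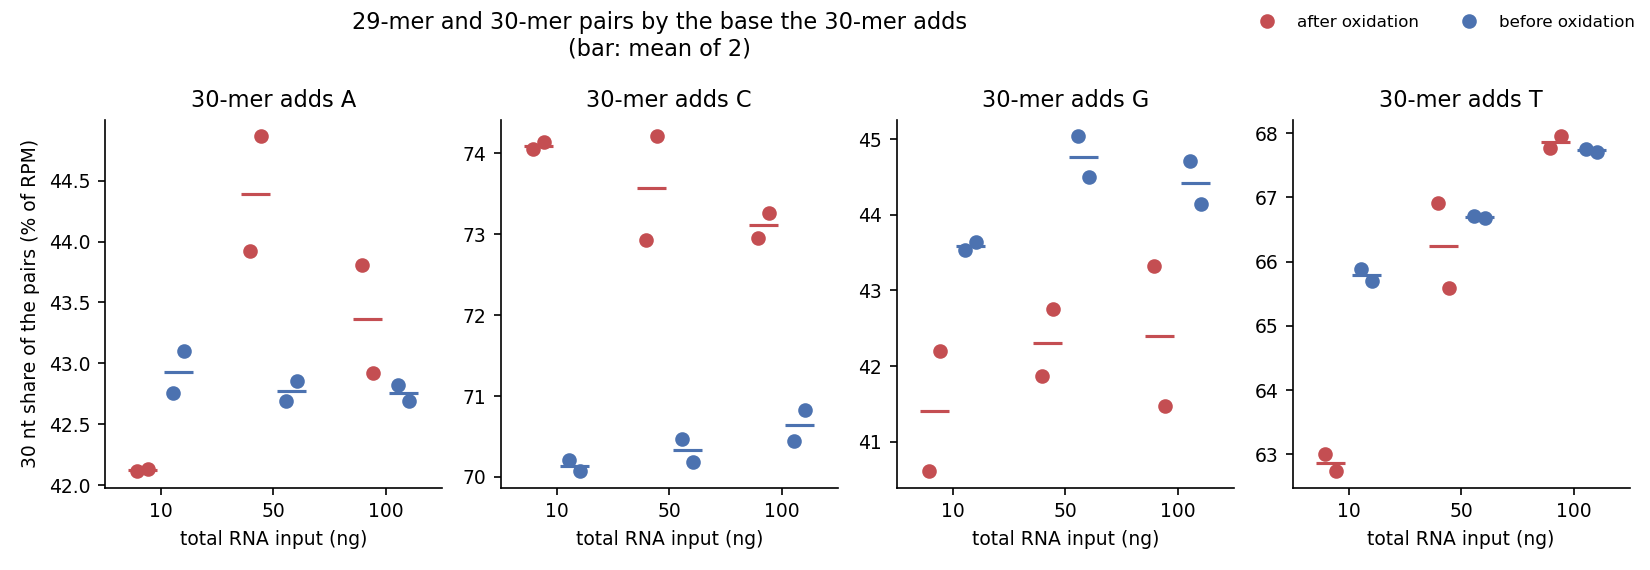
Share of the 30 nt form in pairs of a 29-mer and a 30-mer with the same 5′ end (y axes, percent of RPM, each with its own range), by the base that the 30-mer adds and by input (x axis, ng); points are libraries, bars means of 2. Pairs adding C lie at 72.9% to 74.2% after oxidation against 70.1% to 70.8% before it, and pairs adding G lie lower after oxidation at each input.

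The same 5′ ends gave other lengths too. Counting all reads of 26 to 36 nt that start like a tested member, 30 nt made up 36.96 ± 0.257% after oxidation and 34.8 ± 0.396% before it. Lengths of 33 to 36 nt had lower shares after oxidation, for example 0.548 ± 0.127% after and 0.942 ± 0.0248% before at 33 nt, and 0.0198 ± 0.00610% after and 0.0860 ± 0.00412% before at 35 nt. The 32 nt share was 2.86% after and 4.66% before oxidation at 10 ng, but 5.21% after and 5.17% before at 100 ng. The shares carry no test.

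Single sequences changed in both directions. On average over inputs, 1707 tested members were higher and 1268 lower after oxidation, that is 25.9% and 19.2%, beside 21.2% and 22.8% of all 22726 sequences tested (limma, adjusted p below 0.05). The median log2 change was 0.10 for members and -0.14 for all tested sequences. The sign of the member median depended on the scale and tool. It was -0.11 with a pseudocount of 0.1, -0.11 with libraries centred on their medians, -0.05 on the piRNA total, -2.39 on spike-ins, -0.07 with no filter, -0.10 with a filter of 50 RPM, -0.24 with edgeR and -0.38 with DESeq2. With edgeR 1103 members were higher and 1864 lower, beside 3076 and 7521 of all 22726 sequences. With DESeq2 1174 and 2228 members were called, beside 3261 and 8807, and with centring 1435 and 1490, beside 4068 and 6135. Medians over all sequences were lower than those of members, at -0.49 with edgeR, -0.64 with DESeq2 and -0.34 with centring. Without the 10 ng libraries, 1853 members were higher and 761 lower, beside 24.6% and 13.1% of all sequences, and the medians were 0.34 and 0.23. The share of members called higher was thus near that of all sequences in both fits.

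By input, 1724 members were higher and 1777 lower at 10 ng, beside 21.4% and 31.5% of all sequences. At 50 ng 431 were higher and 210 lower, beside 5.77% and 3.44%, and at 100 ng 111 were higher and 131 lower, beside 1.91% and 2.16%. All 6 groups share 1 estimate of spread in these counts, and single libraries decided them: without replicate 1 or 2 at 10 ng after oxidation, 1318 and 1323 members were higher at 50 ng and 620 and 620 at 100 ng. Without 1 of the 2 libraries before oxidation at the same input, 90 and 85 were higher at 50 ng and 15 and 14 at 100 ng. With the 10 ng libraries left out, 1326 members were higher and 575 lower at 50 ng, beside 17% and 9.69% of all sequences, and 617 were higher and 361 lower at 100 ng, beside 9.18% and 6.17%. The median member changed by -0.27 at 10 ng, 0.33 at 50 ng and 0.34 at 100 ng on the log2 scale. With DESeq2 these medians were -0.67, -0.15 and 0.00, and with a pseudocount of 10 the median at 10 ng was 0.08. Changes at different inputs come from separate libraries. Across the 6603 members they correlated with r of 0.74 between 50 and 100 ng, 0.64 between 10 and 50 ng, and 0.44 between 10 and 100 ng.

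GC content tracked the change, which the rule did not use. At 10 ng the median log2 change was 0.59 for the 1353 members under 35% GC and -1.60 for the 1045 members at 50% or more. At 100 ng these medians were 0.55 and 0.11, with the steps between in order at both inputs. In tested sequences outside the set the medians at 10 ng were 0.13 and -1.72, a gradient in the same direction. Weighted by RPM, member GC content was 41.0 ± 0.343% after and 42.5 ± 0.463% before oxidation (exact permutation p = 0.00926, adjusted p = 0.0122), with differences of -2.31, -1.21 and -0.737 percentage points at 10, 50 and 100 ng. This GC content also differed with input before oxidation, at 43.1% and 43.0% with 10 ng and 42.1% and 42.1% with 100 ng. After oxidation it was 40.7% and 40.8% with 10 ng and 41.3% and 41.4% with 100 ng. From 100 to 10 ng before oxidation, single members changed by a median log2 of -0.36 under 35% GC and 0.13 at 50% or more. The part of GC content in the differences between single members was not tested.

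**Figure D4:**
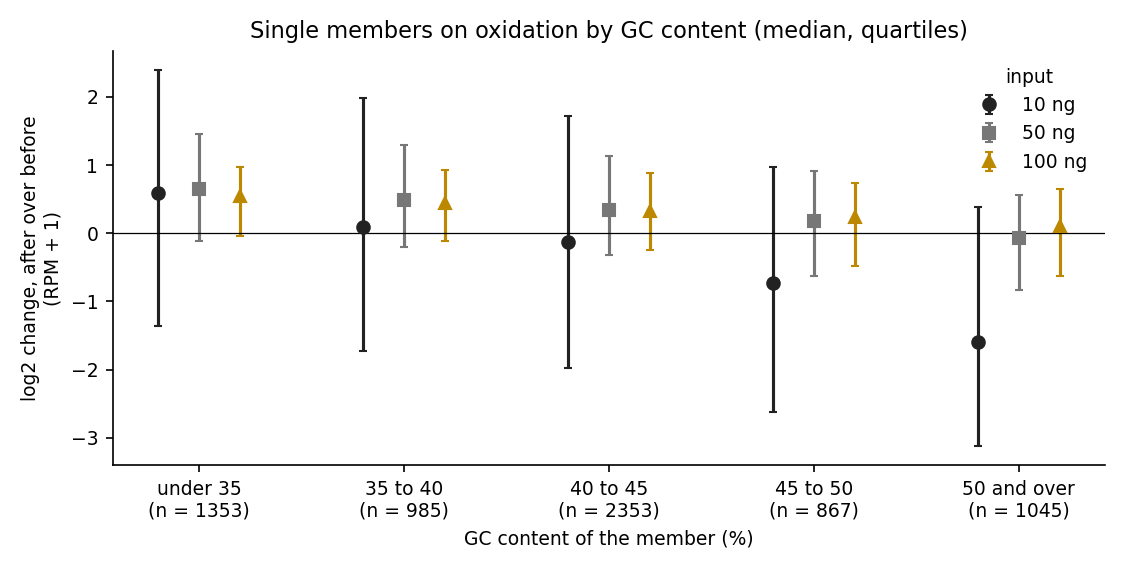
Log2 change of single tested members, after over before oxidation (y axis), by GC content (x axis, percent, with the number of members) and input (symbol); points are medians and bars the quartiles over members. At 10 ng medians go down from 0.59 under 35% GC to -1.60 at 50% and over, and at 100 ng from 0.55 to 0.11, with wider quartiles at 10 ng.

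By last base, single members ending in C had the highest median at each length, and those ending in G the lowest on average over inputs. Median log2 changes averaged over inputs were 0.35 for the 1420 tested members of 30 nt ending in C and 0.18 for the 1001 of 29 nt ending in C. They were -0.19 for the 340 of 30 nt ending in G and -0.24 for the 235 of 29 nt ending in G. For those ending in A and T they were 0.04 and 0.06 at 30 nt, and -0.05 and 0.04 at 29 nt, and at 10 ng the median of 29 nt ending in A, -0.60, lay below that of G, -0.50. Read as the last pair of bases, CC (696 members, 0.43), GT (600, 0.36) and TC (666, 0.34) had the highest medians. The lowest were CG (11 members, -1.46), AG (134, -0.51) and CA (236, -0.50). With C next to last, members ending in C thus had the highest median and those ending in G the lowest. Median GC content was 44.8% for CC, 41.4% for CA and 41.4% for CG. In the tested sequences outside the set CC had 0.10, CA -0.49 and CG -1.24.

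The placed member with the most RPM was n1, a 30-mer from an exon of Gm21269, a long intergenic non-coding RNA gene on chromosome 7. It had 3388 and 3189 RPM after oxidation at 10 ng, 5998 and 4915 at 50 ng, and 7807 and 6954 with 100 ng, against 3418 and 3584, 5522 and 5524, and 6535 and 6185 RPM before oxidation at these inputs. The groups overlapped, and limma called no change (log2 change 0.03 ± 0.05, limma adjusted p = 0.662). A fall was called with edgeR (-0.50, edgeR adjusted p = 0.000563), with DESeq2 (-0.65, DESeq2 adjusted p = 6.08e-08) and on the piRNA total (-0.14, limma adjusted p = 0.0469). Input did: at 10 against 100 ng, n1 was lower by a log2 change of -1.16 after oxidation (limma adjusted p = 3.52e-05) and of -0.86 before it (limma adjusted p = 0.00748). Its 29 nt partner n10, which lacks the final G, had 137.8 and 153.3, 101.2 and 123.8, and 131.8 and 96.3 RPM after oxidation at 10, 50 and 100 ng, against 34.6 to 69.5 RPM before it. All 6 libraries after oxidation lay above all 6 before it (log2 change 1.26 ± 0.14, limma adjusted p = 0.000164).

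Other members chosen as the highest after oxidation, n3 to n6, changed in opposite directions by input. That choice favours high values after oxidation, so their rises and the p-values of those rises give no separate support. The 30-mer n3, antisense to the pseudogene Gm3433 on chromosome 8, had 88.8 and 61.8 RPM after oxidation at 10 ng but 819 and 496 at 50 ng, then 990 and 1073 with 100 ng. Before oxidation it had 270 to 375 RPM in all 6 libraries, so it was below this range at 10 ng and above it at 50 and 100 ng (limma F test of the interaction, adjusted p = 0.000706). Its 29-mer n4 did likewise, with log2 changes of -1.55 at 10 ng, 1.41 at 50 ng and 1.85 at 100 ng (limma F test of the interaction, adjusted p = 0.00293). The average over inputs hides this, at 0.23 for n3 (limma adjusted p = 0.209) and 0.57 for n4 (limma adjusted p = 0.0435), and without the 10 ng libraries these were 1.32 (limma adjusted p = 1.8e-05) and 1.63 (limma adjusted p = 2.63e-06). Leaving out 1 library ended the call of n4 in 9 of 12 cases, with log2 changes of 0.38 to 0.77 over the 12.

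Lower values at 10 ng and higher ones at 100 ng were also seen for n5 and n6 from 1700001L05Rik, a long intergenic non-coding RNA gene on chromosome 15. Their log2 changes were -0.49 at 10 ng and 0.82 at 100 ng for n5, and -1.21 and 1.31 for n6 (limma F test of the interaction, adjusted p = 0.0302 and 0.00161). The 29-mer n2 lies in the RefSeq promoter window of Gm10505 on chromosome 17. It had 179 and 124 RPM after oxidation at 10 ng against 436 to 853 RPM after oxidation at 50 and 100 ng and 465 to 567 RPM before it. The 29-mer n7 of 1700042G15Rik on chromosome 4 had 40.2 and 25.98 RPM after oxidation at 10 ng and 200 to 376 RPM at 50 and 100 ng, against 224 to 345 RPM before it. Its 30-mer n11, with T added, had 16.6 RPM and no read in the 10 ng libraries after oxidation, and 47.6 to 95.6 RPM at the higher inputs, against 61.7 to 93.2 RPM before oxidation.

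The largest fall among placed members was that of n12, another 30-mer from Gm21269, which lies upstream of n1 and ends in TG. It had no read in both 10 ng libraries after oxidation, 3.49 and 5.79 RPM at 50 ng, and 4.78 and 5.37 RPM with 100 ng, against 78.4 to 137 RPM before oxidation. The change was -5.16 ± 0.20 on the log2 scale (limma adjusted p = 1.68e-06), all 6 libraries after oxidation lay below all 6 before it, and the change was -4.22 without the 10 ng libraries. Taking 3 reads over both 10 ng libraries as the floor, it was at least 179-fold lower there in reads. Those libraries had 38.9 and 45.6 reads per distinct member, so this floor does not bound the fall in molecules. The other 4 of the largest falls were also at 0 in both 10 ng libraries after oxidation and had log2 changes of -3.66 to -3.02.

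The members with the smallest interaction p, n13, n14 and n15, had no read after oxidation at 10 ng. The 30-mer n13, from Gm49794 on chromosome 17, had no read after oxidation at 10 ng, 45.01 and 26.7 RPM at 50 ng, and 59.2 and 48.0 RPM with 100 ng, against 48.2 to 62.8 RPM before oxidation. By the floor of 3 reads it was at least 82.7-fold lower at 10 ng, while at 100 ng its log2 change was 0.03 ± 0.33 (limma F test of the interaction, adjusted p = 0.000431). The 29-mers n14 of Gm10505 and n15 of Gm21221 had no read at 10 ng either, at least 129-fold and 103-fold lower by that floor. Their 100 ng log2 changes were -0.28 ± 0.31 and 0.20 ± 0.35. As for n12, the floor does not bound the fall in molecules. Without the 10 ng libraries none of these 3 falls was called, with limma adjusted p of 0.243, 0.0950 and 0.520.

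Among the largest rises, n17 from the 3′ UTR of Cbl, which encodes a ubiquitin ligase, had 104 and 101 RPM after oxidation at 10 ng, 13.96 and 58.8 at 50 ng, and 13.1 and 13.9 with 100 ng. Before oxidation it had 1.07 to 3.66 RPM, so the libraries did not overlap (log2 change 3.61 ± 0.36, limma adjusted p = 9.41e-05). The rise differed with input, with 5.64 at 10 ng and 1.88 at 100 ng (limma F test of the interaction, adjusted p = 0.0349). From Gm21269, n19 had 7.90 to 64.3 RPM after oxidation and at most 2.50 RPM before it (log2 change 3.71 ± 0.35, limma adjusted p = 6.2e-05). The 29-mer n24 of Gm49794 had no read in any library before oxidation. After it, replicate 2 at 10 ng had 97.7 RPM and the other 5 libraries 2.21 to 10.2 RPM, so a mean over the 6 would rest on 1 library. These 5 rises and 5 falls were chosen for their size, and 92 rises and 45 falls met the same conditions. Before oxidation n17 and n19 averaged 2.08 and 0.996 RPM, so they, like n24, met the limits of 5 and 10 RPM only through the libraries after it. Likewise n12 averaged 3.24 RPM after oxidation and met them through the libraries before it. Lack of overlap and p-values of such members describe the choice and give no separate support.

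**Figure D5:**
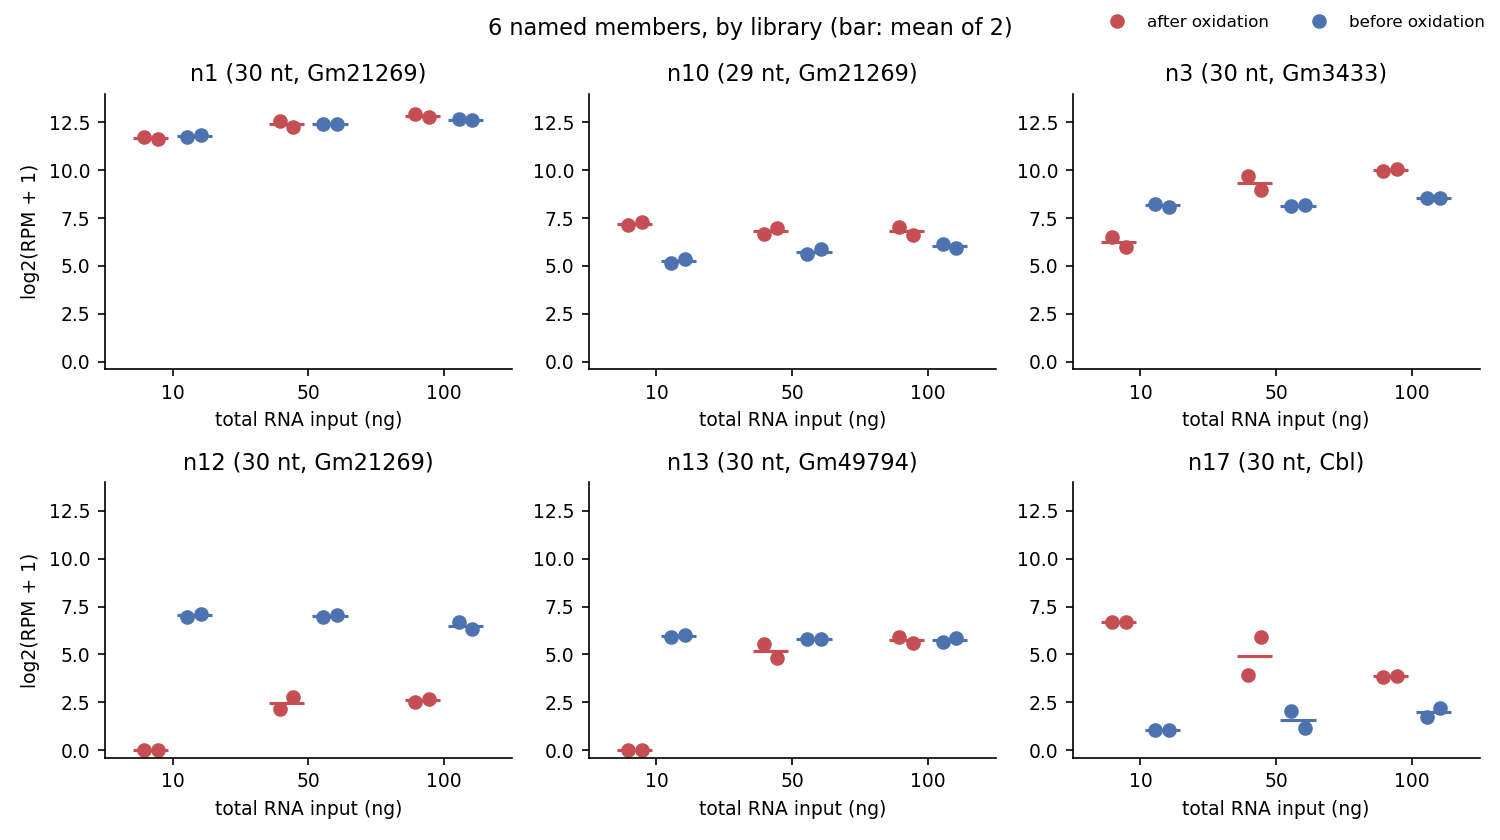
Levels of 6 named members as log2(RPM + 1) (y axes) at each input (x axis, ng); points are libraries, bars means of 2, red after and blue before oxidation. n10 lies higher after oxidation and n12 lower at each input, while n3 lies lower after oxidation at 10 ng and higher at 50 and 100 ng, and n13 is at 0 after oxidation at 10 ng.

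More members were called between 10 and 100 ng after oxidation than before it. Between 10 and 100 ng after oxidation, 977 members were higher and 1619 lower, beside 12.5% and 28.8% of all sequences. Before oxidation 85 were higher and 53 lower, beside 1.06% and 0.744% of all, and these 138 calls became 1 to 3 without 1 library of either input before oxidation and 1045 without 1 library of 10 ng after it. The oxidation change differed between inputs for 1397 members, or 21.2%, beside 23.1% of all sequences (limma F test of the interaction), and it was 821 to 3573 members with 1 library left out. Between 50 and 100 ng limma called 0 members before and 0 after oxidation, with 183 and 511 at an unadjusted p under 0.05. DESeq2 called 8 and 43 there, and edgeR called 0 and 0. Without the 10 ng libraries limma called 0 higher and 13 lower before oxidation, beside 0% and 0.0968% of all sequences, and 11 higher and 48 lower after it, beside 0.167% and 0.757%. The 8 class sums differed between 10 and 100 ng in 8 cases after oxidation, with 5 higher and 3 lower beside 46.2% and 27.2% of all classes, and in 3 cases before it, with 1 higher and 2 lower beside 16.9% and 5.98%. The 2 T classes and 30 nt ending in G were the lower ones after oxidation.

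The number of distinct members fell with oxidation at equal depth. Thinned to 477135 member reads, libraries held 14486 and 10465 distinct members after oxidation at 10 ng, 34984 and 36112 at 50 ng, and 38891 and 36057 with 100 ng. Before oxidation they held 37558 and 36041, 46947 and 47347, and 49319 and 48145 at these inputs (log2 change -0.79, exact permutation p = 0.00926, adjusted p = 0.0122). The 100 members with the highest mean took 11.02% and 10.9% of member RPM after oxidation at 10 ng, 23.7% and 17.4% at 50 ng, and 25.8% and 26.7% with 100 ng, against 19.5% to 24.9% before it, which did not pass (exact permutation p = 0.167, adjusted p = 0.175).

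Of the 6603 tested members, 922 matched a transcript or promoter window, with 13.6% of tested member RPM, and 855 did so at 1 position. The genome itself was not searched, so other copies were not counted. By position, 540 lay in sense in exons of non-coding genes or pseudogenes, 153 in 3′ UTRs and 14 in coding sequence of protein-coding genes, 133 antisense to an exon, and 15 in a promoter window. In the 922 placed members 223 were higher and 178 lower after oxidation, beside 21.2% and 22.8% of all tested sequences. Gm21269 held 98 tested members at 7043 ± 1859 RPM after and 6689 ± 1358 RPM before oxidation, with 22 higher and 22 lower. Set against the same 21.2% and 22.8% of all sequences, the counts of calls by gene are a description, and nothing is read from them.

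Other genes with many members were Gm49794 with 55, 8 higher and 11 lower, and 1700001L05Rik with 40, 8 higher and 4 lower. In 4933440M02Rik on chromosome 7, 35 members had 807 ± 92.9 RPM after and 536 ± 33.7 RPM before oxidation, with 12 higher and 5 lower. In Gm10619 on the same chromosome, 33 members had 655 ± 117 RPM after and 459 ± 40.4 RPM before oxidation, with 11 higher and 2 lower. Gm5878 held 31 members with 622 ± 76.3 RPM after and 607 ± 71.8 RPM before oxidation, with 7 higher and 6 lower. Gm30132 held 26 with 426 ± 68.5 RPM after and 425 ± 29.1 RPM before it, with 5 higher and 6 lower. In 1700042G15Rik, 12 members had 646 ± 290 RPM after and 804 ± 106 RPM before oxidation, with 1 higher and 5 lower. Their median log2 change was -1.97 at 10 ng and -0.06 at 100 ng. Of these members n7 had 219 ± 156 RPM after and 295 ± 54.9 RPM before oxidation. Nemp1, which encodes a nuclear envelope membrane protein, held 27 members with 566 ± 89.8 RPM after and 486 ± 18.4 RPM before oxidation, with 6 higher and 3 lower. The sums by gene carry no test.

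Base composition also moved. At position 2, which the rule left free, G made up 27.6% of member RPM after oxidation and 32.3% before it. Position 10 was not free, since the rule removed A there, and shares are among C, G and T only. T made up 41.3% of them after and 36.8% before. In the 31 and 32 nt set, also without A at position 10, the same bases were G at 31.1% after and 36.0% before, and T at 39.1% after and 32.3% before. At the next to last position C was 24.9% after and 27.8% before, and G was 35.6% after and 32.8% before oxidation. In 833 placed members with known sequence beyond the 3′ end, the next base was A in 31.7%, C in 18.6%, G in 21.6% and T in 28.1%. At the base after that A was 27.4% and G 26.1%. Composition values are weighted by RPM except these last, which count each member equally, and none carries a test.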

How the data were processed

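RPM values of piRNA sequences and miRNAs and raw counts of spike-in reads were deposited by the authors, who used Bowtie (version not given) with the builds mm10 and hg38 per the submitters' processing notes; the role of hg38 and the RPM denominator are not given in the sources used here. Whole reads were recovered from the step of 1 read in the RPM values, and 100% of values were whole within 0.01 of a read. Sequences with a mean of at least 5 RPM, and classes of at least 50 RPM, were fitted as log2(RPM + 1) with limma 3.58.1 (trend, 6 group means, R 4.3.3) across all 22726 sequences or 301 classes, with Benjamini-Hochberg adjustment over all of them. Classes were made by length, first base U or not, base 10 A or not, and last base. Fold changes on this scale understate those of low sequences. Values per library were tested by exact permutation within inputs. edgeR 4.0.16 and DESeq2 1.42.0 were run on recovered reads. The limma fit averaged over inputs was tried on simulated reads with the same dispersion in all libraries. For sequences it recovered 44.8% of 1.5-fold, 88.1% of 2-fold and 100% of 4-fold changes, with 4 false calls. The simulation held no extra spread or loss of members at 10 ng after oxidation, so it does not cover those libraries.

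Named members were chosen among 883 placed members. They were the 6 highest after oxidation, the 5 largest rises and 5 largest falls called at 10 RPM or more and in the same direction in all 6 same-numbered pairs, used only to select, since numbers do not pair samples, the highest of each length and last base, the 3 with the smallest interaction p, and the partners of the 5 highest pairs. The members and lists were chosen with earlier results of these data known. Sequences of transcripts and promoter windows are from GENCODE and RefSeq (GRCm38). No per-sample column was left unused (0). Intervals and floors cover counting error only, and reads without molecular identifiers are not independent molecules.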

Additional observations from a re-analysis of the deposited data

Results flagged for a closer look

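Changes on oxidation that differed between 10 and 100 ng are given here as the change at 10 ng minus that at 100 ng. For 3 values per library the libraries moved in opposite directions at the 2 inputs, and the difference itself was not tested. It was -10.05 percentage points for the share of the 100 highest members, -1.41 for the 30 nt share of pairs adding A, and -3.05 for that of pairs adding T. The class listed passed the limma test of 10 against 100 ng at an adjusted p below 0.05. Named members were listed where the limma F test of the interaction gave an adjusted p below 0.05. The class of 30 nt ending in T differed by -0.13 on the log2 scale.

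Among named members the log2 difference was -2.45 for n2, -3.40 for n3, -3.40 for n4, -1.31 for n5, -2.52 for n6, -2.86 for n7 and -2.28 for n9, which are abundant members. It was -3.15 for n12, -3.40 for n16 and -3.80 for n22, which are large falls, and 3.76 for n17 and 3.13 for n21, which are large rises. It was -5.97 for n13, -6.28 for n14 and -6.47 for n15, which were chosen for their interaction p. The members n10, n23 and n26 did not pass the F test, with log2 differences of 1.14, 3.47 and -2.33. They did pass the limma test of 10 against 100 ng alone (limma adjusted p = 0.0362, 0.0326 and 0.0422). The 10 ng libraries after oxidation also held the fewest distinct members, and the part of that in these differences was not tested.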

How the results depend on the processing

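Replicates are technical, most tested members were not placed, and counts of single sequences depend on the shared spread; the cause of each change below was not tested. Over all 22726 sequences spike-in scaling called 19839 lower on average, and 17943, 16761 and 16240 at 10, 50 and 100 ng. Members called higher on average over inputs were 718 with no filter and 169 with a filter of 50 RPM. On the methylated spike-in scale they were 58, and with edgeR 1103, beside 175 and 3076 of all 22726 sequences. Lower member calls were 160 at 50 RPM and 761 without 10 ng libraries. On spike-ins 5596 members were lower, and with DESeq2 2228, beside 19839 and 8807 of all sequences. At 10 ng higher calls were 802 with no filter, 143 at 50 RPM, 169 on spike-ins, 889 with edgeR and 1080 with DESeq2, and lower calls were 831, 260 and 4954 under the initial 3 of these. At 50 ng higher calls were 39 with no filter, 117 at 50 RPM, 286 with centring on medians, 30 on spike-ins, 150 with edgeR and 1326 without 10 ng libraries. Lower calls at 50 ng were 126 with a pseudocount of 0.1, 17 with no filter, 48 at 50 RPM, 4613 on spike-ins, 556 with DESeq2 and 575 without 10 ng libraries. At 100 ng higher calls were 24 with no filter, 61 with centring, 4 on spike-ins, 60 on the piRNA total, 29 with edgeR and 617 without 10 ng libraries. Lower calls at 100 ng were 81 with a pseudocount of 0.1, 9 with no filter, 39 at 50 RPM, 4512 on spike-ins, 327 with DESeq2 and 361 without 10 ng libraries. Between 10 and 100 ng before oxidation calls were 233 with a pseudocount of 10, 30 with no filter, 604 on spike-ins and 470 with DESeq2. After oxidation higher calls there were 276 with no filter, 111 at 50 RPM, 152 on spike-ins, 220 with edgeR and 540 with DESeq2, and lower calls were 435 with no filter and 275 at 50 RPM. Between 50 and 100 ng calls before oxidation were 2 with no filter, 8 with DESeq2 and 13 without 10 ng libraries, and after oxidation 1, 43 and 59. Interaction calls were 143 with no filter and 259 at 50 RPM. With the replicate number as a block, calls were 107 higher and 59 lower at 50 ng, 9 and 21 at 100 ng, 612 sequences and 1 class for the interaction, and the ratio to 31 and 32 nt (log2 0.12) no longer passed; the block ended no other result given per library. Same-numbered libraries did not deviate together (correlations of -0.00766, -0.0129 and 0.00996 over 22726 sequences), so numbers were not taken to pair samples. On spike-ins 301 of all 301 classes were lower on average, and 298, 301 and 300 at 10, 50 and 100 ng. Of the 8 classes, spike-in scaling called 0 higher and 8 lower at each input and on average. Their log2 changes were -2.82, -2.60, -2.93 and -2.81 for 29 nt ending in A, C, G and T, and -2.68, -2.50, -2.98 and -2.71 for 30 nt. On the piRNA total 2 were lower on average, 1 at 10 ng, 1 at 50 ng, and 3 higher and 3 lower at 100 ng, with -0.0074 for 29 nt A, -0.12 for 29 nt G and -0.17 for 30 nt G. Sums over sequences of at least 5 RPM gave 1 lower on average, 2 higher and 2 lower at 10 ng, -0.11 for 30 nt G and 3 interactions; centring gave 2 higher and 1 lower at 10 ng. Class calls between 10 and 100 ng were 0 with centring and 5 with DESeq2 before oxidation, and 5 with centring, 4 with edgeR and 4 with DESeq2 after it. Class interactions were 4 with centring, 8 on spike-ins, 4 on the piRNA total and 2 with edgeR. Counting distinct sequences once, members ending in A changed by -0.038 percentage points (no longer passing) and pairs adding T by 0.98, now passing. At 5 RPM or more the ratio to the A10 set (0.053) and the 30 nt share of pairs (0.11) no longer passed, pairs adding G changed by 0.41 and pairs adding T by -2.35, now passing. On spike-ins n1, n3, n4, n5, n6 and n10 had log2 changes of -2.96, -2.73, -2.38, -2.72, -2.61 and -1.69. n1 had -0.14 on the piRNA total, -0.50 with edgeR and -0.65 with DESeq2, each then a called fall; n4 had -0.047 and n5 -0.41 with DESeq2; n6 had -0.19 with edgeR and -0.33 with DESeq2. With 1 library left out, calls averaged over inputs were 1440 to 2423 higher and 1007 to 2122 lower, at 10 ng 1330 to 2248 and 1396 to 2766, at 50 ng 85 to 1323 and 43 to 608, and at 100 ng 14 to 620 and 30 to 395. Input calls were 1 to 1045 before oxidation and 479 to 1637 higher and 1213 to 2823 lower after it, 0 to 20 and 0 to 100 between 50 and 100 ng, and 821 to 3573 for the interaction. Class calls were 3 to 6 between 10 and 100 ng before oxidation and 0 to 4 for the interaction, and the ratio to 31 and 32 nt changed by 0.11 to 0.14. Scaling to the piRNA total, leaving out 10 ng libraries, splitting pairs by added base and leaving out highest members were chosen after seeing the data.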
